A study of Mus musculus with 15 samples.

Results

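The secreted ligands of the VEGF, FGF, HGF and angiopoietin families were followed at the transcript level across 5 sorted mouse cell populations. The set holds 9 genes: Vegfa, Vegfc and Pgf of the VEGF family, Fgf2, Fgf7 and Fgf10 of the FGF family, Hgf, and the angiopoietins Angpt1 and Angpt2. They were chosen by symbol from a list of paracrine growth factors and by no rule on measured values, though earlier results of these data were known. All 9 were among the 10222 gene symbols with a deposited value. Levels are RPKM, read counts scaled by transcript length and by the mapped reads of the library, summed over the transcripts of a symbol, so levels of different genes are compared per unit of length.

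VEGF-family proteins act on receptor tyrosine kinases of vessels, with VEGFA acting mainly on blood vessel endothelium, VEGFC on lymphatic endothelium and PGF on the receptor encoded by Flt1. FGF7 and FGF10 are made mainly by mesenchymal cells and act on epithelia through a splice form of FGFR2, FGF2 acts on many cell types, and HGF is a mesenchymal ligand of the MET receptor. ANGPT1 activates the endothelial receptor TIE2, encoded by Tek, and ANGPT2 competes for the same receptor; in adipose tissue these signals are known for matching the vascular bed to the fat depot.

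The cells came from C57BL/6 mice heterozygous for an Il33-citrine reporter, a fluorescent protein expressed from 1 Il33 allele, and 3 libraries from independent experiments were made of each population. Adipose stromal cells lacking the lineage, CD45, EpCAM, CD31 and CD24 markers and carrying PDGFRα, CD34, Sca1 and podoplanin were split by citrine into Il33+ and Il33- WAT-MSC (mesenchymal stromal cells of white adipose tissue, named mesenteric in the labels). The other populations were lung Il33+ MSC, CD31+ WAT endothelial cells and EpCAM+ epithelial cells, which the labels assign to lung although the series description gives the EpCAM+ gate for white adipose tissue, and no gate specific to the lung stromal cells was given in the sources used here. No treatment, age or sex is given in the labels. Because the sort defines each population by surface markers and a reporter, a population can hold several cell states, and the RNA was amplified before library construction.

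The libraries held 42711843 to 60773158 alignments each, with a median of 53038567, and reads per gene were not used here, so the errors given are the spread between libraries. Il33 itself ranged from 38.7 to 78.5 RPKM in Il33+ WAT-MSC, from 43.0 to 55.7 in lung Il33+ MSC, from 15.1 to 21.4 in endothelial cells, from 4.31 to 6.76 in Il33- WAT-MSC and from 3.92 to 6.40 in epithelial cells. The 6 stromal markers summed to between 4271 and 8945 RPKM in the MSC libraries, the 6 endothelial markers to between 436 and 464 in endothelial cells against at most 61.6 elsewhere, and the 6 epithelial markers to at least 161946 in epithelial cells against at most 542 elsewhere. The endothelial libraries also held stromal markers, at 1767 to 3659 RPKM in all, and mural cell markers, at 177 to 253 against at most 25.9 elsewhere. Macrophage markers summed to between 166 and 220 RPKM in lung Il33+ MSC and between 710 and 1368 in epithelial cells, against at most 37.0 in either WAT-MSC and between 8.80 and 139 in endothelial cells. Most of these sums was Lyz2 alone, at 658 to 1301 RPKM in epithelial cells and 105 to 145 in lung Il33+ MSC. In the same order Chil3 averaged 45.0 and 44.8 RPKM, Cd68 12.1 and 12.4, Csf1r 2.85 and 1.52, and Marco 2.01 and 2.50. Correlations between libraries of a population were lowest in endothelial cells, at 0.772 to 0.917, where replicate 1 stood apart for several of the ligands described here. The share of transcripts at 0 was highest in endothelial replicate 1, at 10.9%, and next in Il33- WAT-MSC replicate 1, at 7.41%. Il33- WAT-MSC replicate 1 also held the lowest Vegfa, Vegfc, Fgf2 and Fgf7 of its population.

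Added together, the 9 ligands had their highest level in lung Il33+ MSC, at 82.3 ± 6.14 RPKM (SD, n = 3), and in Il33+ WAT-MSC, at 72.6 ± 11.7. The sum was 44.9 ± 14.2 RPKM in Il33- WAT-MSC, 42.4 ± 8.72 in endothelial cells and 14.9 ± 3.72 in epithelial cells. Vegfa made up 44.5% of it in Il33+ WAT-MSC, 42.6% in Il33- WAT-MSC, 39.8% in lung Il33+ MSC and 65.5% in epithelial cells, whereas Vegfc led in endothelial cells with 28.0%. After Vegfa, Fgf7 was the most abundant of the 9 ligands by mean level in each of the 3 stromal populations. A mean of at least 1 RPKM was reached by 8 of the 9 ligands in lung Il33+ MSC and in endothelial cells, by 7 in Il33- WAT-MSC, by 6 in Il33+ WAT-MSC and by 2 in epithelial cells. In sorted bulk samples such as these, fewer cells expressing a gene and less RNA per cell cannot be told apart.

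**Figure D1:**
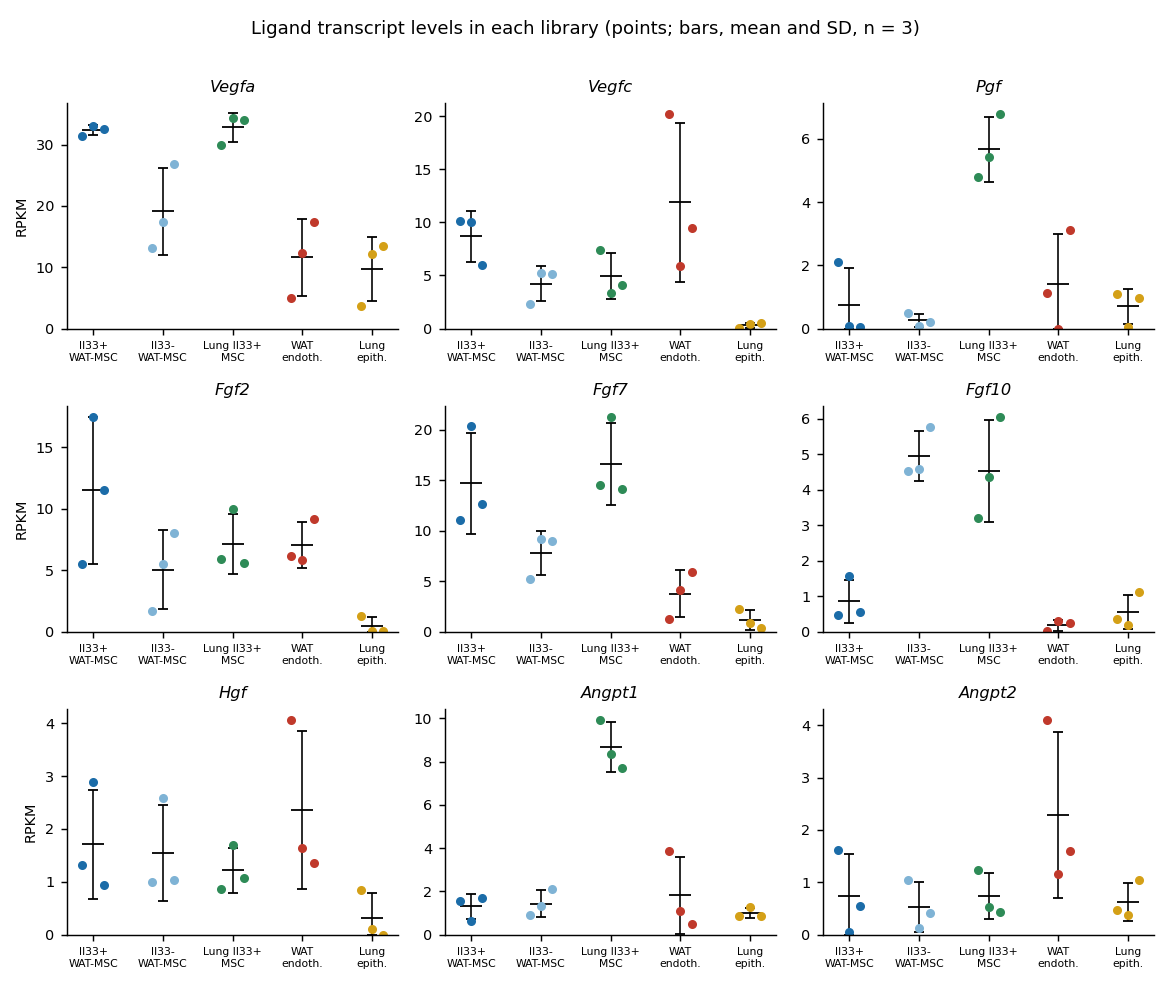
RPKM of each of the 9 ligands (vertical axes, linear, each gene on its own scale) in the 3 libraries of each of the 5 populations; points are libraries, and the bars give the mean and SD, cut at 0. Vegfa and Fgf7 were high in both Il33+ stromal populations, Fgf10 was high in Il33- WAT-MSC and lung Il33+ MSC, and Pgf and Angpt1 were high in lung Il33+ MSC.

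The 5 comparisons were run over all genes with limma on log2(RPKM + 1). A gene was tested if 3 or more of the 6 libraries held at least 1 RPKM, and it was called at a Benjamini-Hochberg adjusted p under 0.05. Il33+ WAT-MSC entered 3 of the comparisons and endothelial cells 2, so these comparisons share libraries. Adding 1 to the RPKM understates the fold change of genes near or under 1 RPKM. Levels below are RPKM, differences are on this log2 scale with their SE, and values of single libraries are given in the order of replicates 1, 2 and 3.

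Vegfa, the principal inducer of blood vessel growth, had its highest levels in both Il33+ stromal populations. It measured 31.5, 33.0 and 32.5 RPKM in Il33+ WAT-MSC, 30.0, 34.3 and 34.0 in lung Il33+ MSC, and 13.1, 17.4 and 26.8 in Il33- WAT-MSC. Endothelial cells held 4.99, 12.4 and 17.4 RPKM, and epithelial cells 3.70, 12.1 and 13.4. The Il33+ populations overlapped each other and lay above every library of the other populations, while Il33- WAT-MSC, endothelial and epithelial cells overlapped as neighbours in the order of means. With a mean of 32.3 RPKM, Vegfa stood at the 92.2 percentile of all genes in Il33+ WAT-MSC and at the 87.4 percentile in Il33- WAT-MSC. The difference between Il33+ and Il33- WAT-MSC was 0.79 ± 0.27 and did not pass the test (adjusted p = 0.262). Neither did the difference of -0.02 ± 0.18 for Il33+ WAT-MSC over lung Il33+ MSC (adjusted p = 0.978). Against endothelial cells, Il33+ WAT-MSC had 1.55 ± 0.41 more Vegfa without passing the test (adjusted p = 0.0902), and without endothelial replicate 3 the difference was 1.90 with an adjusted p of 0.0386. Against epithelial cells, lung Il33+ MSC had higher Vegfa by 1.81 ± 0.39 (adjusted p = 0.00464).

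The Vegfa gene lies on chromosome 17 of mouse build GRCm38, at chr17:46016993-46032377 on the minus strand, and 7 of its transcripts were listed. The promoter of its first listed start site is shown because Vegfa had the highest mean of the 9 ligands in every stromal population. Exon 6 and exon 7 are shown because transcripts with and without exon 6 differ in their binding to heparan sulfate. In the 250 bases before the start site (chr17:46032378-46032627, minus strand, RefSeq on GRCm38.p6, 59.2% GC), capitals mark 2 GC boxes, GGGCGG, at -72 and -62 from the start, and a CCAAT box at -235. Exon 6 (chr17:46022277-46022348, 72 bases) is in capitals as the exon absent from the shorter form, and exon 7 (chr17:46020991-46021122, 132 bases) is common to both forms; both coding exons are from GENCODE on GRCm38.
Vegfa promoter: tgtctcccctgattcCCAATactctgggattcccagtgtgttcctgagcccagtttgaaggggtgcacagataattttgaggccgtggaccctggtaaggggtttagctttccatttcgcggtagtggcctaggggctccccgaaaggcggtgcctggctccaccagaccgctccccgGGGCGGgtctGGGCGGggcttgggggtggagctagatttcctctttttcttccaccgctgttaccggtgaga
Vegfa exon 6: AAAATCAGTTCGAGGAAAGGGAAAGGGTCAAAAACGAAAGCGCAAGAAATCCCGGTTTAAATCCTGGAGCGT
Vegfa exon 7: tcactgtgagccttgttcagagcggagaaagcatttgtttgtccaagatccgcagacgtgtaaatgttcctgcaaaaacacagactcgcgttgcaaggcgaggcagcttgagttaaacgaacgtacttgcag

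The ratio of NM_001025250, which has exons 6 and 7, to NM_009505, which has exon 7 without exon 6, was examined after the values of the gene had been seen. It was 0.413, 0.357 and 0.403 in Il33+ WAT-MSC and 0.473, 0.632 and 0.750 in lung Il33+ MSC, so that these libraries did not overlap although the summed Vegfa did. The means were 0.391 ± 0.0297 and 0.619 ± 0.139 (SD, n = 3), and a two-sided exact permutation test of the log2 ratio gave p = 0.1, the smallest that 3 against 3 libraries allow, and 0.5 after Benjamini-Hochberg adjustment over the 5 comparisons. In Il33- WAT-MSC the ratio was 0.356, 0.486 and 0.442, in endothelial cells 0.360, 0.356 and 0.386, and in epithelial cells 0.345, 1.12 and 0.856. Il33- WAT-MSC and endothelial cells overlapped Il33+ WAT-MSC, with two-sided exact permutation p-values of 0.5 and 0.3. Reads of the shared exons had to be divided among the 7 transcripts, 2 of which held the same value in every library, so the ratio is an estimate of the authors' quantification rather than a count of exon 6 reads.

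**Figure D2:**
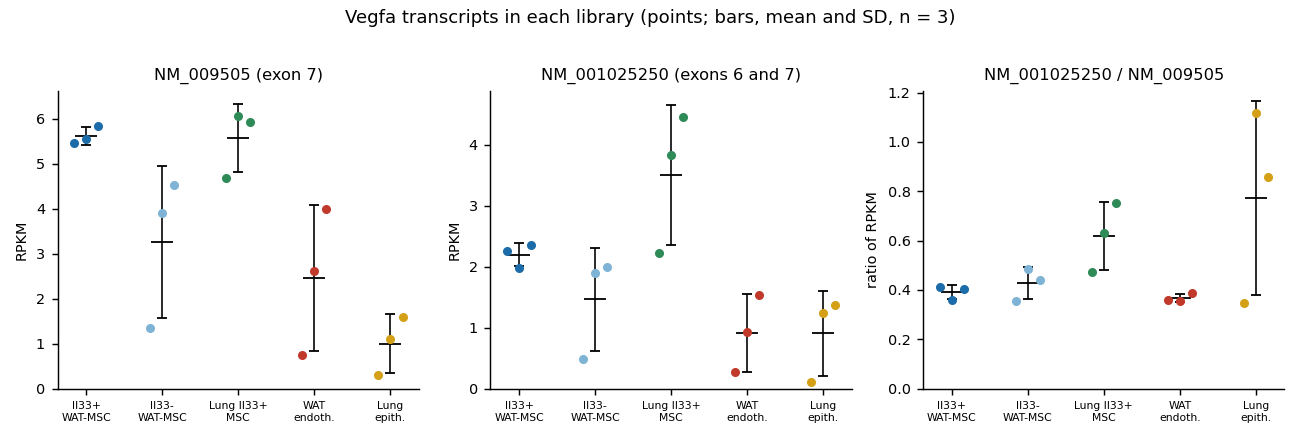
RPKM of the Vegfa transcripts without and with exon 6 and their ratio (vertical axes, linear) in each library of the 5 populations; points are libraries, and bars give the mean and SD. The ratio lay between 0.357 and 0.413 in Il33+ WAT-MSC and between 0.473 and 0.750 in lung Il33+ MSC.

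Vegfc, a ligand of the lymphatic receptor encoded by Flt4, was found in the stromal and endothelial populations and was near absent from epithelial cells. Il33+ WAT-MSC held 10.1, 10.0 and 5.95 RPKM, Il33- WAT-MSC 2.30, 5.20 and 5.16, and lung Il33+ MSC 7.43, 3.33 and 4.06. Endothelial cells held 20.3, 5.89 and 9.50 RPKM, with the high value in replicate 1, and epithelial cells 0.05, 0.39 and 0.51. Every Il33+ WAT-MSC library exceeded every Il33- WAT-MSC library, by 0.92 ± 0.35 on average, but the difference did not pass the test (adjusted p = 0.326). The Il33- WAT-MSC libraries lay below the endothelial libraries, at a difference of -1.20 ± 0.50 that did not pass either (adjusted p = 0.256), and of -0.76 without endothelial replicate 1. Lung Il33+ MSC exceeded epithelial cells by 2.13 ± 0.33 (adjusted p = 0.000603).

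Pgf, placental growth factor, was a lung stromal transcript in these data. Its level was 4.79, 5.43 and 6.80 RPKM in lung Il33+ MSC, whereas Il33+ WAT-MSC held 2.10, 0.09 and 0.05, and Il33- WAT-MSC 0.48, 0.08 and 0.22. Endothelial cells held 1.12, 0 and 3.11 RPKM, and epithelial cells 1.08, 0.06 and 0.96. All 3 lung stromal libraries lay above all 12 others, and the remaining populations overlapped. Pgf was lower in Il33+ WAT-MSC than in lung Il33+ MSC by a difference of -2.12 ± 0.42 (adjusted p = 0.0141), a call lost in 5 of 14 alternatives. Leaving out Il33+ WAT-MSC replicate 3 gave an adjusted p of 0.0551, and leaving out lung Il33+ MSC replicate 1, 2 or 3 gave 0.0551, 0.0727 and 0.0721. Over epithelial cells it was higher in lung Il33+ MSC by 2.02 ± 0.33 (adjusted p = 0.000876).

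Fgf2, a broad mitogen that also binds heparan sulfate, varied widely between replicates and was lowest in epithelial cells. It measured 5.54, 17.5 and 11.5 RPKM in Il33+ WAT-MSC, 1.65, 5.50 and 8.01 in Il33- WAT-MSC, 5.90, 9.98 and 5.55 in lung Il33+ MSC and 6.14, 5.83 and 9.19 in endothelial cells. These 4 populations overlapped, and the difference between Il33+ and Il33- WAT-MSC was 1.10 ± 0.49 (adjusted p = 0.416). Epithelial cells held 1.29, 0.04 and 0.08 RPKM, below all 12 other libraries, and lung Il33+ MSC exceeded them by 2.53 ± 0.38 (adjusted p = 0.000529).

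Fgf7 and Fgf10 belong to the same FGF subfamily and share the receptor FGFR2, but their transcripts were distributed differently among the stromal cells. Fgf7, keratinocyte growth factor, measured 11.1, 20.4 and 12.6 RPKM in Il33+ WAT-MSC, 14.5, 21.3 and 14.1 in lung Il33+ MSC and 5.25, 9.18 and 8.93 in Il33- WAT-MSC. In endothelial cells it measured 1.27, 4.13 and 5.91 RPKM and in epithelial cells 2.27, 0.88 and 0.31. As with Vegfa, both Il33+ stromal populations overlapped and lay above all other libraries. The excess of Il33+ over Il33- WAT-MSC was 0.83 ± 0.31 (adjusted p = 0.326) and that over endothelial cells 1.82 ± 0.48 (adjusted p = 0.0847), neither past the threshold, while lung Il33+ MSC exceeded epithelial cells by 3.11 ± 0.36 (adjusted p = 0.000104).

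Fgf10, which directs branching of the lung and is also made by adipose precursor cells, measured 0.46, 1.56 and 0.55 RPKM in Il33+ WAT-MSC against 4.52, 4.58 and 5.77 in Il33- WAT-MSC and 3.2, 4.35 and 6.06 in lung Il33+ MSC. It measured 0.01, 0.30 and 0.23 RPKM in endothelial cells and 0.35, 0.19 and 1.11 in epithelial cells. The Il33- WAT-MSC and lung Il33+ MSC libraries overlapped and lay above all 9 others, so Il33+ WAT-MSC overlapped lung Il33+ MSC for Fgf7 and not for Fgf10. Fgf10 was lower in Il33+ than in Il33- WAT-MSC by a difference of -1.72 ± 0.36 (adjusted p = 0.0389), from means of 0.857 and 4.96 RPKM. The call was held in 6 of 14 alternatives, with adjusted p from 0.0158 to 0.163. Without Il33+ WAT-MSC replicate 1 or 3 the adjusted p was 0.148 and 0.163, and without Il33- WAT-MSC replicate 1, 2 or 3 it was 0.0716, 0.124 and 0.157, at differences between -1.57 and -1.78. Against lung Il33+ MSC the difference was -1.59 ± 0.34 (adjusted p = 0.0195). That call was held in 8 of 14 alternatives, and leaving out Il33+ WAT-MSC replicate 1 or 3, or lung Il33+ MSC replicate 2 or 3, gave adjusted p-values of 0.0723, 0.0707, 0.0996 and 0.112. Il33- WAT-MSC exceeded endothelial cells by 2.34 ± 0.39 (adjusted p = 0.0081), with an adjusted p of 0.0554 without endothelial replicate 2, and lung Il33+ MSC exceeded epithelial cells by 1.85 ± 0.33 (adjusted p = 0.00144).

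The upstream sequences of Fgf7 and Fgf10 are shown side by side because the genes are of one subfamily and differed in which stromal population was low. The Fgf7 window (chr2:126034408-126034657, plus strand, 43.6% GC) and the Fgf10 window (chr13:118714449-118714698, plus strand, 61.2% GC) are the 250 bases before the RefSeq start sites on GRCm38.p6. In capitals are a GCGTG match at -188 and a CCAAT box at -53 from the Fgf7 start, and a GC box, read on the opposite strand, at -199 from the Fgf10 start.
Fgf7 promoter: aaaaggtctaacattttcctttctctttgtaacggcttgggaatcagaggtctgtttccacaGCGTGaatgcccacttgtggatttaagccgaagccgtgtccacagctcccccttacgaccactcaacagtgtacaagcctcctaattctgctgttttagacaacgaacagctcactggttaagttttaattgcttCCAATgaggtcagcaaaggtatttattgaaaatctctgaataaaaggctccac
Fgf10 promoter: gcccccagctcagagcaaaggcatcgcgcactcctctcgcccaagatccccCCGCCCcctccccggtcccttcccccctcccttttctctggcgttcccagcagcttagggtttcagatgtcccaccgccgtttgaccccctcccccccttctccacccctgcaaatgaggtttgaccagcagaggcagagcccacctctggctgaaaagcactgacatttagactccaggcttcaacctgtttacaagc

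The motifs searched on both strands were the GC box GGGCGG, present in 32.7% of 32817 RefSeq windows of the same length, the CCAAT box CCAAT (33.8%), the hypoxia response cores ACGTG (16.6%) and GCGTG (28.1%), the TATA box TATAAA (12.4%) and the AP-1 site TGAGTCA (4.46%). Neither hypoxia core was in the window of the first listed Vegfa start, and both were in the window of a second start site of that gene, at -211 and -218 from it. Sequence further upstream than these 250 bases was not searched, and use of the start sites was not measured. Windows were listed for 7 of the 9 ligands, with 10 start sites, and Angpt1 and Angpt2 had no entry. A match is a run of letters and was not tested for binding in these cells.

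Hgf was low in every population, with no call in any comparison in which it was tested. In lung Il33+ MSC against epithelial cells, with means of 1.21 and 0.317 RPKM, it was below the filter and not tested. It measured 1.31, 2.88 and 0.93 RPKM in Il33+ WAT-MSC, 1.00, 2.59 and 1.04 in Il33- WAT-MSC, 0.87, 1.70 and 1.07 in lung Il33+ MSC, 4.07, 1.64 and 1.36 in endothelial cells, and 0.85, 0.10 and 0 in epithelial cells. The first 4 populations overlapped, and only the epithelial libraries lay apart, below all others. The difference between Il33+ and Il33- WAT-MSC was 0.08 ± 0.41 (adjusted p = 0.970). The levels of its 2 listed transcripts, inspected after the values were seen, were not divided alike between populations. NM_001289461 held 3.82, 1.58 and 1.17 RPKM in endothelial cells against 0.47, 0.23 and 0.13 in Il33+ WAT-MSC, without overlap, whereas NM_001289460 held 0.25, 0.06 and 0.19 against 0.84, 2.65 and 0.80. In Il33- WAT-MSC, NM_001289461 held 0.52, 1.35 and 0.71 RPKM, overlapping endothelial cells, and NM_001289460 held 0.48, 1.24 and 0.33. Lung Il33+ MSC held 0.14, 0.59 and 0.88 RPKM of NM_001289461 and 0.73, 1.11 and 0.19 of NM_001289460. These differences were not tested, and the reads that the transcripts share make the division between them uncertain.

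Angpt1, the activating ligand of the TIE2 receptor, was highest in lung Il33+ MSC, at 9.94, 8.36 and 7.71 RPKM. Il33+ WAT-MSC held 1.57, 0.61 and 1.71 RPKM, Il33- WAT-MSC 0.89, 1.30 and 2.10, endothelial cells 3.84, 1.10 and 0.51, and epithelial cells 0.85, 1.28 and 0.86. All lung stromal libraries lay above all 12 others, which overlapped. Angpt1 was lower in Il33+ WAT-MSC than in lung Il33+ MSC by a difference of -2.10 ± 0.30 (adjusted p = 0.00212), and it was the ligand with a call in this comparison under each of 15 alternatives. It was higher in lung Il33+ MSC than in epithelial cells by 2.28 ± 0.26 (adjusted p = 8.6e-05). Angpt2, the context-dependent antagonist that endothelial cells release, measured 4.11, 1.16 and 1.59 RPKM in endothelial cells against 1.61, 0.05 and 0.55 in Il33+ WAT-MSC and 1.04, 0.12 and 0.42 in Il33- WAT-MSC. It measured 1.24, 0.53 and 0.43 RPKM in lung Il33+ MSC and 0.46, 0.37 and 1.04 in epithelial cells. Endothelial cells lay above Il33- WAT-MSC without overlap, with a difference of -1.05 ± 0.48 that did not pass (adjusted p = 0.314) and was -0.68 without endothelial replicate 1. They also lay above the epithelial libraries, whereas neighbours in the order of means all overlapped.

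Set beside all genes, the ligands were called at different rates in the 5 comparisons. In Il33+ against Il33- WAT-MSC, 1.57% of 8448 tested genes were called, 0.923% higher and 0.651% lower in Il33+ cells, and of the 7 ligands tested 1 was called, Fgf10, lower. With Fgf10 included, 5 of the 7 had an unadjusted limma p under 0.05. Libraries did not overlap for 4 of the 9 ligands, with Vegfa, Vegfc and Fgf7 higher and Fgf10 lower in Il33+ WAT-MSC, and for 16.1% of all gene symbols. The median difference of the 7 ligands was 0.79 against -0.01 over all genes tested. The 6 mesothelial markers summed to 35.3 to 116 RPKM in Il33+ WAT-MSC and to 20.8 to 35.8 in Il33- WAT-MSC, ranges that overlapped. Among them Upk1b was called higher in Il33+ cells (2.90, adjusted p = 0.0394), a call lost in 8 of 15 alternatives, and 5 were not called. Of these 5, Krt19 (2.57), Upk3b (2.36), Lrrn4 (2.28) and Msln (1.31) were also higher in Il33+ cells. Wt1 was lower, averaging 11.8 RPKM in Il33+ against 15.9 in Il33- WAT-MSC. The median difference of the 6 mesothelial markers was 2.32, with 4 at an unadjusted p under 0.05. The macrophage marker sums did not overlap, with medians of 9.47 RPKM in Il33+ and 35.6 in Il33- WAT-MSC. Cd68 (-1.45) and Lyz2 (-1.12), the 2 of them tested, were lower in Il33+ cells but not called, and each overlapped. Of 3 mural markers tested limma called 0. Rgs5 was higher (1.33) and Notch3 lower (-1.15) in Il33+ cells, each without overlap, and Des overlapped. The part of mesothelial, macrophage and mural transcripts in the ligand levels was not tested.

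Against lung Il33+ MSC, 6.00% of 8554 tested genes were called in Il33+ WAT-MSC, 2.50% higher and 3.50% lower, and of the 8 ligands tested 3 were called lower, Pgf, Fgf10 and Angpt1, and none higher. For the same 3 ligands of 9, and for 22.1% of all gene symbols, libraries did not overlap, and the median difference of the ligands was -0.10 against 0.03 over all genes tested. With the called ligands included, 4 of the 8 had an unadjusted limma p under 0.05. Markers of other cell types differed in both directions in this comparison. Of the epithelial markers, Sftpb and Sftpc were called higher in lung Il33+ MSC, 2 of 3 tested, with Sftpc at 53.8 against 0.683 RPKM. Scgb1a1 was also higher there, at 255 against 94.6, but was not called. Below the filter, Cdh1 averaged 0.763 against 0.0433 RPKM, Epcam 0.110 against 0.117 and Krt18 0.380 against 2.22. Of the macrophage markers 3 of 5 were called higher in lung Il33+ MSC, Lyz2 (127 against 3.45 RPKM), Chil3 (44.8 against 0.0467) and Marco. Csf1r, at 1.52 against 0.81, and Cd68, at 12.4 against 4.69, were not called. Of the endothelial markers Pecam1 and Cdh5 were called higher there, 2 of 4 tested and lost in 7 and 5 of 15 alternatives, and Kdr and Emcn, at 1.83 and 1.06 against 3.04 and 1.30, were not called. The mural marker Kcnj8 was called higher in lung Il33+ MSC, at 18.6 against 1.15 RPKM, and the mural marker Rgs5 lower, at 0.503 against 11.9. Mesothelial markers were lower in lung Il33+ MSC, 5 of 6 called, with sums of 4.89 to 7.74 RPKM. In the epithelial libraries Sftpc averaged 1249 and Lyz2 1006 RPKM. The part of the epithelial, macrophage, endothelial, mural and mesothelial transcripts in the ligand differences was not tested.

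Against endothelial cells, 3.90% of 8665 tested genes were called in Il33+ WAT-MSC, 0.565% higher and 3.34% lower, and limma called 0 of the 8 ligands tested. At an unadjusted p under 0.05 there were 2, Vegfa and Fgf7. Libraries did not overlap for 3 of the 9, Vegfa, Fgf7 and Fgf10, all higher in Il33+ WAT-MSC, and for 21.3% of all gene symbols, and Fgf10, with means of 0.857 and 0.180 RPKM, was below the filter. In Il33- WAT-MSC against endothelial cells, 5.69% of 8713 genes were called, 1.60% higher and 4.10% lower, and 1 of 8 ligands, Fgf10, was called higher. With Fgf10 included, 2 of the 8 had an unadjusted limma p under 0.05. Libraries did not overlap for Fgf10, Vegfc and Angpt2, 3 of the 9, the latter 2 lower in Il33- WAT-MSC, and for 22.1% of all gene symbols. The endothelial libraries held Dcn at 916 to 1472 RPKM and the mural marker Rgs5 at 141 to 215, and their macrophage and mesothelial markers summed to 8.80 to 139 and 52.6 to 200 RPKM. The part of stromal, mural, macrophage and mesothelial transcripts in their ligand levels was not tested.

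For lung Il33+ MSC against lung epithelial cells, 43.0% of 9352 tested genes were called, 24.4% higher and 18.5% lower, and all 7 ligands tested were called higher. Hgf and Angpt2 did not reach the filter. Libraries did not overlap for 8 of the 9 ligands, all but Angpt2 and all higher in lung Il33+ MSC, and for 51.4% of all gene symbols. The median difference was 2.13 against 0.13 over all genes tested. Scgb1a1, a club cell secretory protein, averaged 182700 RPKM in the epithelial libraries, a share of the reads for which RPKM makes no correction. Median-ratio scaling moved the median over all genes by a difference of -0.19, and the 7 ligands were called higher with it as well.

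**Figure D3:**
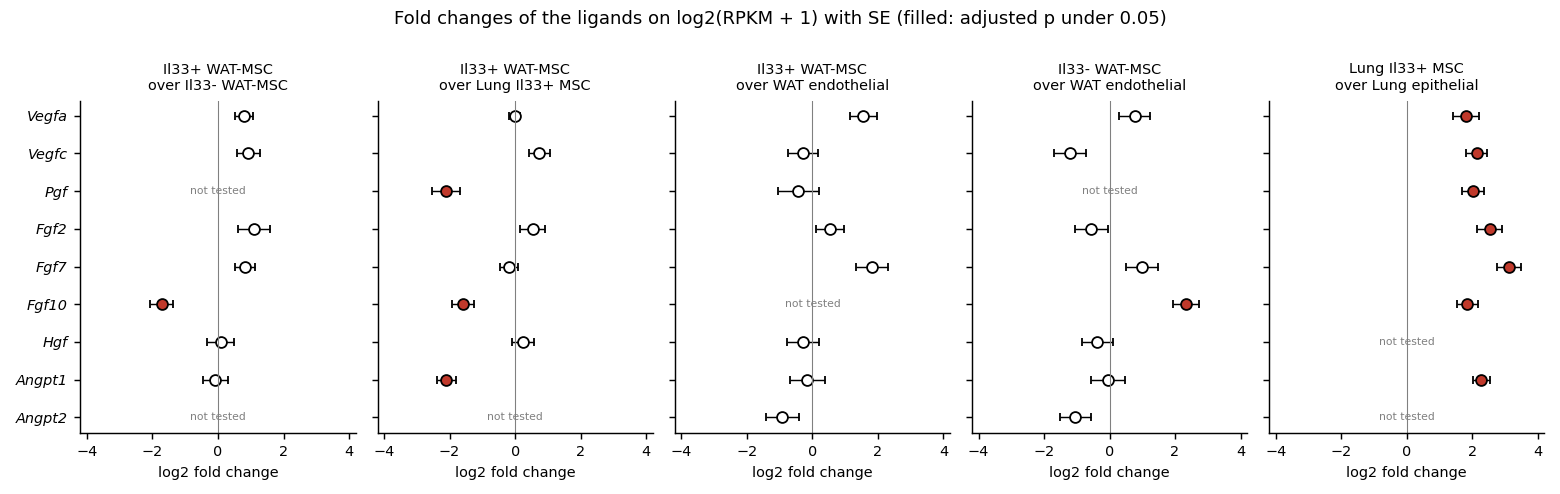
Difference of each ligand on log2(RPKM + 1) with its SE (horizontal axis) in the 5 comparisons, with filled points for an adjusted p under 0.05 and genes below the filter marked as not tested. Fgf10 was lower in Il33+ WAT-MSC than in both Il33- WAT-MSC and lung Il33+ MSC, and 7 ligands were higher in lung Il33+ MSC than in epithelial cells.

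Most VEGF and TIE receptors were lower in the adipose stromal cells than in endothelial cells. Of the 7 VEGF and TIE receptors and co-receptors, all 7 were tested against endothelial cells, and Flt1, Flt4, Nrp2 and Tie1 were called lower in Il33+ WAT-MSC, at differences of -3.71, -3.96, -3.04 and -4.01. Kdr, the main signalling receptor for VEGFA, measured 0.11, 7.55 and 1.45 RPKM in Il33+ WAT-MSC against 11.9, 23.7 and 25.3 in endothelial cells, a difference of -2.83 ± 0.69 that did not pass (adjusted p = 0.0643). In Il33- WAT-MSC, Kdr measured 0.01, 0.63 and 1.37 RPKM and was called lower than in endothelial cells by a difference of -3.69 ± 0.48 (adjusted p = 0.00216), as were Flt1, Flt4, Nrp2 and Tie1. Tek and Nrp1 were detected in stromal cells as well as in endothelial cells. Tek, the receptor of both angiopoietins, measured 11.7, 13.5 and 8.52 RPKM in Il33+ WAT-MSC against 31.4, 19.2 and 21.9 in endothelial cells (-1.03 ± 0.32, adjusted p = 0.140), and Nrp1, a VEGF co-receptor, 21.8, 17.8 and 16.6 against 19.9, 25.8 and 26.4 (-0.34 ± 0.27, adjusted p = 0.602).

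Of 9 receptors tested in Il33+ against Il33- WAT-MSC, limma called 0, with 2 at an unadjusted p under 0.05. The smallest adjusted p was that of Fgfrl1, an FGF receptor without a kinase domain, at 1.00, 0.53 and 2.00 RPKM in Il33+ against 4.22, 4.19 and 4.99 in Il33- WAT-MSC (-1.38 ± 0.36, adjusted p = 0.106). In Il33+ WAT-MSC against lung Il33+ MSC, Nrp2 (-1.41, lost in 5 of 14 alternatives) and Fgfr3 (-1.92) were called lower and the other 8 tested were not. The receptors of FGF7, FGF10 and HGF lay on the epithelial side of the lung comparison. Fgfr2 measured 13.4, 22.8 and 25.1 RPKM in epithelial cells against 1.73, 4.36 and 3.99 in lung Il33+ MSC (-2.31 ± 0.34, adjusted p = 0.000476), and Met 6.21, 8.95 and 6.41 against 0.70, 1.00 and 0.33 (-2.29 ± 0.29, adjusted p = 0.000163). Fgfr3 was also lower in lung Il33+ MSC, by a difference of -0.87 (lost in 4 of 15 alternatives), whereas Fgfr1, with 32.5, 41.2 and 43.0 RPKM against 0.54, 2.97 and 2.24, was higher by 3.87, as were Nrp1 (1.70), Nrp2 (1.46) and Tek (1.86). Fgf7 and Fgf10 were thus higher in the stromal libraries and Fgfr2 in the epithelial ones, and RPKM summed per gene does not separate the FGFR2 splice forms.

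**Figure D4:**
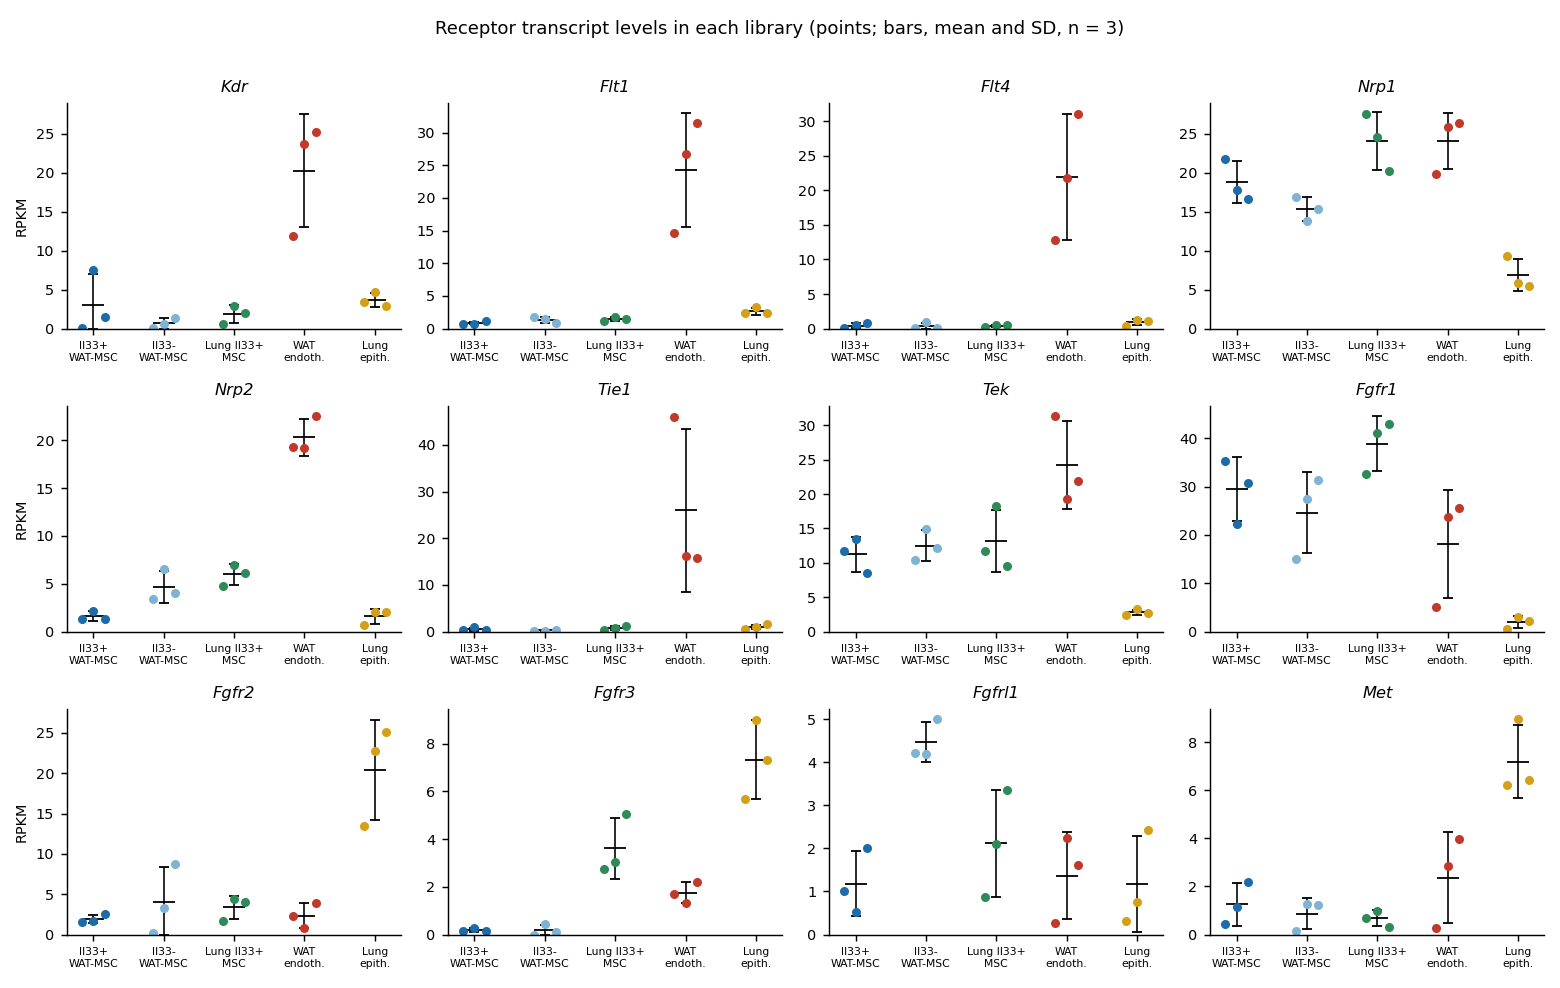
RPKM of 12 receptors of the ligands (vertical axes, linear, each gene on its own scale) in each library of the 5 populations, with points for libraries and bars for the mean and SD, cut at 0. Kdr, Flt1, Flt4, Nrp2 and Tie1 were highest in endothelial cells, Tek and Nrp1 were also present in the stromal populations, and Fgfr2, Fgfr3 and Met were highest in epithelial cells.

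Other ligands of the same families were taken from a list of 24 symbols, 9 of which had a value. Among them, Fgf1 and Fgf18 were more abundant in Il33+ WAT-MSC than any of the 9 ligands above. Vegfd, with means of 34.9 RPKM in Il33- WAT-MSC and 125 in lung Il33+ MSC, exceeded each of the 9 in these 2 populations. Fgf1, which binds all FGF receptors, measured 34.7, 61.0 and 61.3 RPKM in Il33+ WAT-MSC against 4.33, 10.5 and 6.02 in Il33- WAT-MSC, higher by 2.77 ± 0.33 (adjusted p = 0.00305). Fgf18 measured 47.8, 44.5 and 59.7 against 13.6, 18.5 and 21.8, higher by 1.46 ± 0.25 (adjusted p = 0.0148), a call lost in 4 of 15 alternatives, and Fgf23 was higher by 1.54 ± 0.32 (adjusted p = 0.039), a call lost in 10 of 15 alternatives. Of 7 tested, 3 were thus called higher and none lower, with a median of 1.01. Fgf10 was lower in the population in which Fgf1 and Fgf18 were higher. The part of mesothelial, macrophage and mural transcripts in the levels of these further ligands was not tested.

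Against lung Il33+ MSC, Fgf1 (2.85) and Fgf18 (2.62) were again higher in Il33+ WAT-MSC, and Vegfd (-2.00), Angpt4 (-2.76) and Fgf23 (-1.14, adjusted p = 0.0499, lost in 11 of 15 alternatives) were lower, 5 of 8 tested. Vegfd, a ligand related to VEGFC, was the most abundant of these genes in lung Il33+ MSC, at 114, 144 and 117 RPKM against 37.4, 19.5 and 38.1. Lung Il33+ MSC thus had more Angpt1, Angpt4, Pgf and Vegfd than Il33+ WAT-MSC, beside a Vegfa difference of -0.02 ± 0.18. Over epithelial cells, Vegfd, Angpt4, Fgf18 and Fgf23 were higher in lung Il33+ MSC and Fgf1 was lower (-2.29), 5 of 7 tested. Fgf1 was also lower in Il33- WAT-MSC than in endothelial cells (-2.61 ± 0.46, adjusted p = 0.011), and limma called 0 of 7 in Il33+ WAT-MSC against endothelial cells, with 3 at an unadjusted p under 0.05.

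**Figure D5:**
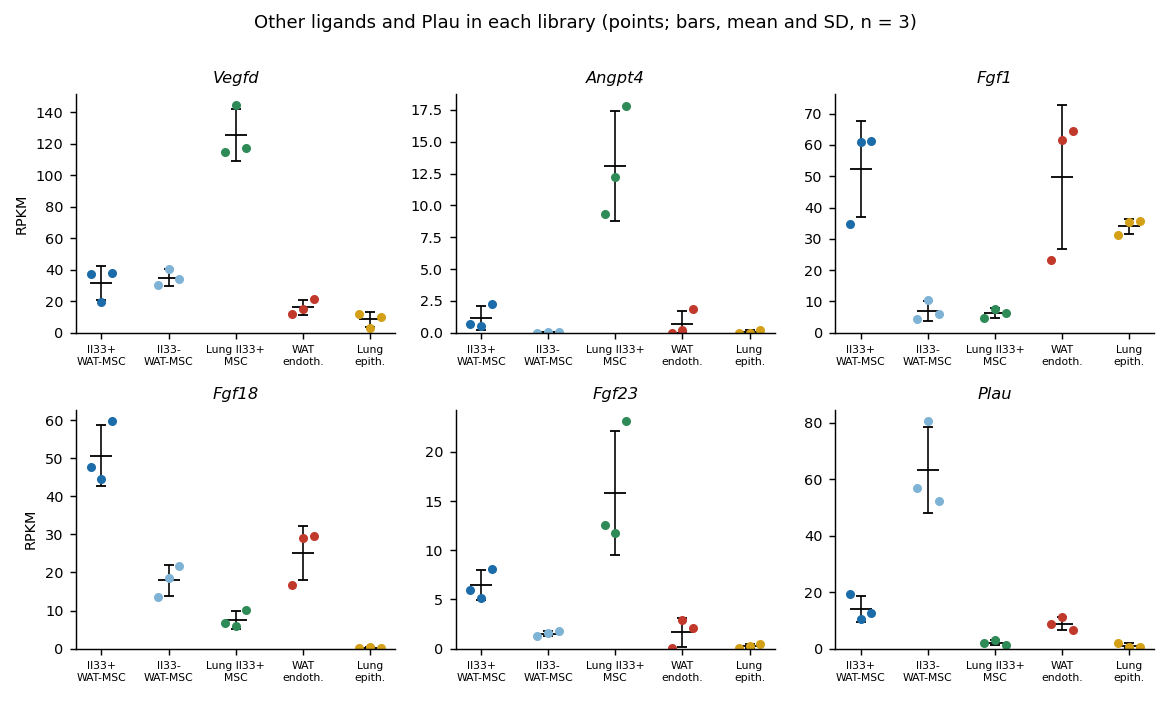
RPKM of 5 further ligands and of Plau (vertical axes, linear, each gene on its own scale) in each library of the 5 populations, with points for libraries and bars for the mean and SD. Fgf1 and Fgf18 were higher in Il33+ than in Il33- WAT-MSC, Vegfd and Angpt4 were highest in lung Il33+ MSC, and Plau was highest in Il33- WAT-MSC.

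HGF is secreted as an inactive chain and cleaved outside the cell, and 4 of 6 listed proteases and inhibitors of this step had a value. Plau, encoding urokinase, measured 19.3, 10.4 and 12.4 RPKM in Il33+ WAT-MSC against 57.1, 80.5 and 52.3 in Il33- WAT-MSC, lower by a difference of -2.12 ± 0.28 (adjusted p = 0.00436), while Hgf itself overlapped between them. Plau was higher in Il33+ WAT-MSC than in lung Il33+ MSC (2.31 ± 0.32, adjusted p = 0.00196) and in Il33- WAT-MSC than in endothelial cells (2.71 ± 0.32, adjusted p = 0.00149). The protease St14 (-2.70) and the inhibitors Spint1 (-3.21) and Spint2 (-4.86) were lower in lung Il33+ MSC than in epithelial cells, 3 of 4 tested, as was Met.

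Heparan sulfate proteoglycans hold FGFs, HGF and the longer VEGFA forms at the cell surface and in the matrix, and 8 of 9 listed had a value and were tested throughout. Hspg2, encoding perlecan, was called lower in Il33+ than in Il33- WAT-MSC (-1.70 ± 0.37, adjusted p = 0.0478, from means of 50.7 and 155 RPKM), a call lost in 10 of 15 alternatives, and the other 7 were not called. Gpc3 was lower in Il33+ WAT-MSC than in lung Il33+ MSC (-0.99, lost in 3 of 15). Against endothelial cells, Sdc2 (1.60) and Gpc6 (1.34) were called higher in Il33+ WAT-MSC, calls lost in 9 and 5 of 15 alternatives, and Sdc2 (2.09) in Il33- WAT-MSC. Over epithelial cells, Gpc6 (5.29), Gpc3 (4.97), Hspg2 (4.16) and Sdc2 (2.18) were higher in lung Il33+ MSC and Sdc1 (-3.56), the main syndecan of epithelia, was lower.

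The genes most like each ligand across the 15 libraries, by Pearson correlation of log2(RPKM + 1), are given as a description, since the libraries share 5 populations and values of all genes move with the differences between them. They were Nucb2 (0.94), Chp1 and Rab23 for Vegfa, Brd9 (0.95), Hdgfrp3 and C1qtnf3 for Vegfc, and Mgp (0.86), Pde9a and Serpina3m for Pgf. For the FGFs they were Phf11d (0.94), Filip1l and Serinc1 for Fgf2, Fmnl2 (0.98), Sult5a1 and Cbx5 for Fgf7, and Adam23 (0.94), 6030408B16Rik and Gpm6b for Fgf10. They were Rcan2 (0.88), Ltn1 and Cpeb2 for Hgf, Cntn4 (0.90), Sh3bgrl and Serpina3m for Angpt1, and Dennd3 (0.87), Tubgcp5 and Cpox for Angpt2. Serpina3m was the gene common to Pgf and Angpt1, whose levels also correlated with each other, at 0.70. Among the ligands the highest correlations were Fgf2 with Fgf7 (0.80), Vegfc with Fgf2 (0.80) and Vegfa with Fgf7 (0.80).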

How the data were processed

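The authors sorted the cells by flow cytometry, amplified total RNA with the Ovation RNA-seq System V2, sequenced it on an Illumina HiSeq4000 and used TopHat2, run in Partek Flow, to align to mm10 (build per the labels). They deposited RPKM for 12698 transcripts, only 41 of them below 1 RPKM throughout. The filter that removed other low transcripts is not given in the sources used here. RPKM corrects for length and mapped reads, not for the share taken by a few abundant transcripts, and division of reads among transcripts of a gene is uncertain. Each of the 15 columns was matched to its sample by the library name in the label, and the number of unmatched columns was 0.

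RPKM was summed per gene symbol and limma (version 3.58.1, R version 4.3.3, lmFit and eBayes with a trend) was run on log2(RPKM + 1) of the 6 libraries of each comparison, without a block or lane term, over genes with at least 1 RPKM in at least 3 libraries, with Benjamini-Hochberg adjustment over all genes tested and a threshold of 0.05. The study gives no model for these data. The fit was tested on simulated data. The alternatives were all 15 libraries in one fit, a replicate block, the sequencing lane, quantile normalization, median-ratio scaling, no filter, a filter at 5 RPKM, 0.1 as the pseudocount, the most abundant transcript and each library left out, 15 for each comparison, fewer for a gene that a filter removed. Replicates are from independent experiments per the series description. Python 3.11.15 (pandas 2.3.3, numpy 2.4.6, scipy 1.17.1, matplotlib 3.10.9) served for all other values.

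The ligands and the lists of receptors, other ligands, proteases, proteoglycans, feedback targets, hypoxia-inducible factors and cell type markers were chosen with earlier results of these data known. All 9 ligands and every measured receptor are named, up to 4 called genes by size of difference from each other list, and the 3 genes most correlated with each ligand. Of 17 listed transcripts of the ligands, 14 were matched to GENCODE M21. The Vegfa transcript ratio and the Hgf transcripts were examined after the values were seen, and the single markers given with values were chosen in the same way from the marker lists.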

Additional observations from a re-analysis of the deposited data

How the results depend on the processing

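Over the 5 comparisons, 38 differences of single ligands were tested, with 539 values under the alternatives. Of these, 495 kept their direction and side of the threshold, 20 lost a call, 6 gained one and 18 changed sign. The changes of sign were in 8 results whose difference was at most 0.29 in size and not called. The cause was not tested in any case below unless fewer libraries or a filter removed the gene.

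The number of ligands called between Il33+ and Il33- WAT-MSC, 1, became 0 with the lane as a covariate, a pseudocount of 0.1 or no filter. It also became 0 with the stricter filter, which removed Fgf10, and ranged from 0 to 1 with 1 library left out. In Il33+ WAT-MSC against lung Il33+ MSC, 3 became 1 with no filter and 1 with the stricter filter, which removed Pgf and Fgf10. The number was 1 to 3 with 1 library left out. In Il33+ WAT-MSC against endothelial cells, 0 became 2 with all 15 libraries in one fit and 1 each with median-ratio scaling, quantile normalization and the most abundant transcript, and 0 to 1 with 1 library left out. Between Il33- WAT-MSC and endothelial cells, 1 became 0 with the stricter filter, which removed Fgf10, and 0 to 1 with 1 library left out. Over epithelial cells, 7 became 4 with the stricter filter, which removed genes, and 6 to 7 with 1 library left out.

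Signs turned as follows, with ranges over the fits that each left out 1 library. In Il33+ against Il33- WAT-MSC, Hgf ranged from -0.21 to 0.36 and Angpt1 from -0.25 to 0.15. In Il33+ WAT-MSC against lung Il33+ MSC, Vegfa was 0.015 with the lane as a covariate and 0.43 with the most abundant transcript, and ranged from -0.078 to 0.016, and Hgf ranged from -0.050 to 0.45. In Il33+ WAT-MSC against endothelial cells, Vegfc ranged from -0.66 to 0.16, Hgf from -0.58 to 0.051 and Angpt1 from -0.51 to 0.33, each highest without endothelial replicate 1. In Il33- WAT-MSC against endothelial cells, Angpt1 was 0.027 with a pseudocount of 0.1 and ranged from -0.42 to 0.42, the highest again without endothelial replicate 1.

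The labels tie a replicate number to no shared animal or day, and no comparison had every pair's correlation above 0.1. Mean correlations of the deviations of same-numbered libraries were 0.067, 0.006, 0.031, 0.113 and 0.084 in the order of comparisons given in the report, and 6, 2, 2, 6 and 6 of 6 libraries correlated best with their own number. With the replicate block the ligands called were 1, 3, 0, 1 and 7, as without it, and the genes called between Il33+ and Il33- WAT-MSC went from 133 to 232. Among all genes, that count was 20 without a filter and 49 to 121 with 1 library left out. The 513 calls against lung Il33+ MSC became 336 in one fit of all libraries and 191 at the fewest with 1 library left out. The 338 calls of Il33+ WAT-MSC and the 496 of Il33- WAT-MSC against endothelial cells became 805 and 1030 in one fit of all libraries, and 56 and 140 at the fewest with 1 library left out. Median-ratio scaling moved the median of all genes by -0.15, -0.14 and -0.19 in the comparisons with endothelial and epithelial cells, which was less than the SE of any ligand in them.

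With 3 libraries of each population, amplified RNA and levels of 5 RPKM or less for Pgf, Fgf10, Hgf and Angpt2 in most populations, absence of a call does not show equal levels. Reads per gene were not used here, so precision rests on the spread between libraries alone. Among the endothelial libraries, replicate 1 carried the highest Vegfc, Hgf, Angpt1 and Angpt2.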

Other observations

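Targets that FGF and HGF signalling induces as feedback, 7 of 8 listed having a value, were mostly not called between stromal populations. Spry4 was lower in Il33+ than in Il33- WAT-MSC, at 5.52, 7.86 and 6.68 RPKM against 14.5, 19.8 and 23.3 (-1.38 ± 0.27, adjusted p = 0.0321), a call lost in 7 of 15 alternatives. The other 6 were also lower but not called, and over the 7 the median was -0.65, with 3 at an unadjusted p under 0.05. Spred1 was higher in Il33+ WAT-MSC than in lung Il33+ MSC (1.24 ± 0.26, adjusted p = 0.0194), 1 of 7 and lost in 5 of 15 alternatives. All 7 were higher in Il33+ WAT-MSC in this comparison, with a median of 0.83 and 5 at an unadjusted p under 0.05. Against endothelial cells limma called 0 of 7 in both WAT-MSC populations, with 0 and 4 at an unadjusted p under 0.05 for Il33+ and Il33- cells. In lung Il33+ MSC over epithelial cells, Spry4 (1.53) and Spred2 (1.09, lost in 6 of 15) were higher and Etv5 (-2.26), a transcription factor of alveolar epithelium, was lower, 3 of 7.

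Of the hypoxia-inducible factors and their regulators, which govern Vegfa transcription in low oxygen, 7 of 8 had a value. Epas1, encoding HIF-2α, was lower in Il33+ WAT-MSC than in endothelial cells (-3.17 ± 0.32, adjusted p = 0.00131, from means of 21.2 and 194 RPKM) and than in lung Il33+ MSC (-1.15 ± 0.27, adjusted p = 0.0306, lost in 7 of 15 alternatives). It was also lower in Il33- WAT-MSC than in endothelial cells (-2.34) and in lung Il33+ MSC than in epithelial cells (-2.00), where Hif1a was higher (0.80, lost in 6 of 15). In Il33+ against Il33- WAT-MSC limma called 0 of 6 tested, with 1 at an unadjusted p under 0.05. Epas1 was highest in endothelial and epithelial cells, at 161 to 237 and 158 to 207 RPKM, and its relation to Vegfa was not tested.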
